A study of Gallus gallus with 2 samples.

Results

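The mitochondrial ribosomal proteins are encoded by nuclear genes, and they were followed here by 50 of the 42034 probes of a chicken expression array. A probe was taken as a member if its gene name began with MRPL or MRPS and a number, which held for 36 probes, or if its description named a mitochondrial ribosomal protein, which held for the other 14. By name, 27 probes belonged to the large subunit and 23 to the small subunit, and 48 of the 50 could be tied to 42 distinct RefSeq genes. RNA was taken from intraepithelial lymphocytes, lymphoid cells that sit within the gut epithelium, of broiler chickens at day 14 of age. One group had been fed direct fed microbials (DFM, live microbes given with the feed), the other is labelled control, and no genotype or further agent is labelled for either. DFM and control RNA were hybridised together on each of 2 arrays, with DFM in the red dye Cy5 on replicate 1 and in the green dye Cy3 on replicate 2. The labels call the arrays biological replicates and also a dye exchange, and the number of birds behind each RNA is not stated. Each p-value therefore rests on differences between 2 arrays alone, pooled in part over all tested probes, and may reflect technical error.

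The mitochondrial ribosome translates the few messages of the mitochondrial genome, all of which, in vertebrates, encode subunits of the oxidative phosphorylation complexes. Its RNAs are made inside the organelle, whereas its proteins are made in the cytosol, imported, and assembled with the help of GTPases, helicases and RNA methyltransferases. The small subunit binds and decodes the message, and the large subunit forms peptide bonds and holds the exit tunnel. Activated T cells are known to build up mitochondrial translation as they enlarge. The files used here hold positions but no sequence for these probes.

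Of 39 tested probes of the family, 1 was higher with DFM, 5 were lower and 33 were not called. MRPS10, a small subunit protein, was 2.35-fold higher, and MRPL19, MRPS30, MRPS35, MRPL39 and MRPL48 were between 1.40-fold and 1.73-fold lower. Another tested probe of MRPL19 was not called. Across all 18242 tested probes, 12.1% were called higher and 10.5% lower, 22.6% together. Probes were tested against 0 with limma on log2 ratios of DFM over control and called at a Benjamini-Hochberg adjusted p under 0.05. Loess normalization centres every array at each level of brightness, so a ratio of 0 stands for the average probe of like brightness. Of all calls, 53.4% were higher (2202 against 1918), a share that became 93.2% (109 against 8) when arrays were centred on their median and 100% on a scale set by spike-in RNAs. After median centring 0 members were called (limma, 1 higher and 0 lower at an unadjusted p under 0.05). In bulk RNA of this kind, fewer cells of a type and less RNA per cell cannot be told apart.

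All 4 channels, that is both RNAs on both arrays, were well above background for 39 of the 50 members, and these were the tested ones. The remaining 11 were not well above background on both arrays with either RNA. No member was saturated. The 39 tested probes represented 37 genes, 22 probes for the large and 17 for the small subunit. Their median log2 ratio was 0.02, at 0.06 on replicate 1 and -0.03 on replicate 2, against 0.00 (0.001) over all tested probes. The middle 50% of members lay between -0.13 and 0.18, and that of all tested probes between -0.21 and 0.23. On both arrays 14 members were above 0 and 13 below, 27 of 39 with the same sign. Over all tested probes, 37.8% were above 0 on both arrays and 38.2% below, 76% together. Between replicates, Pearson r of the ratios was 0.77 across the 39 members and 0.82 across all tested probes, a description over probes that share the same 2 arrays. For 26 of the 39 members the 95% interval of the ratio lay within 1.5-fold in either direction, a share of 66.7%, compared with 59.3% of all tested probes.

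**Figure D1:**
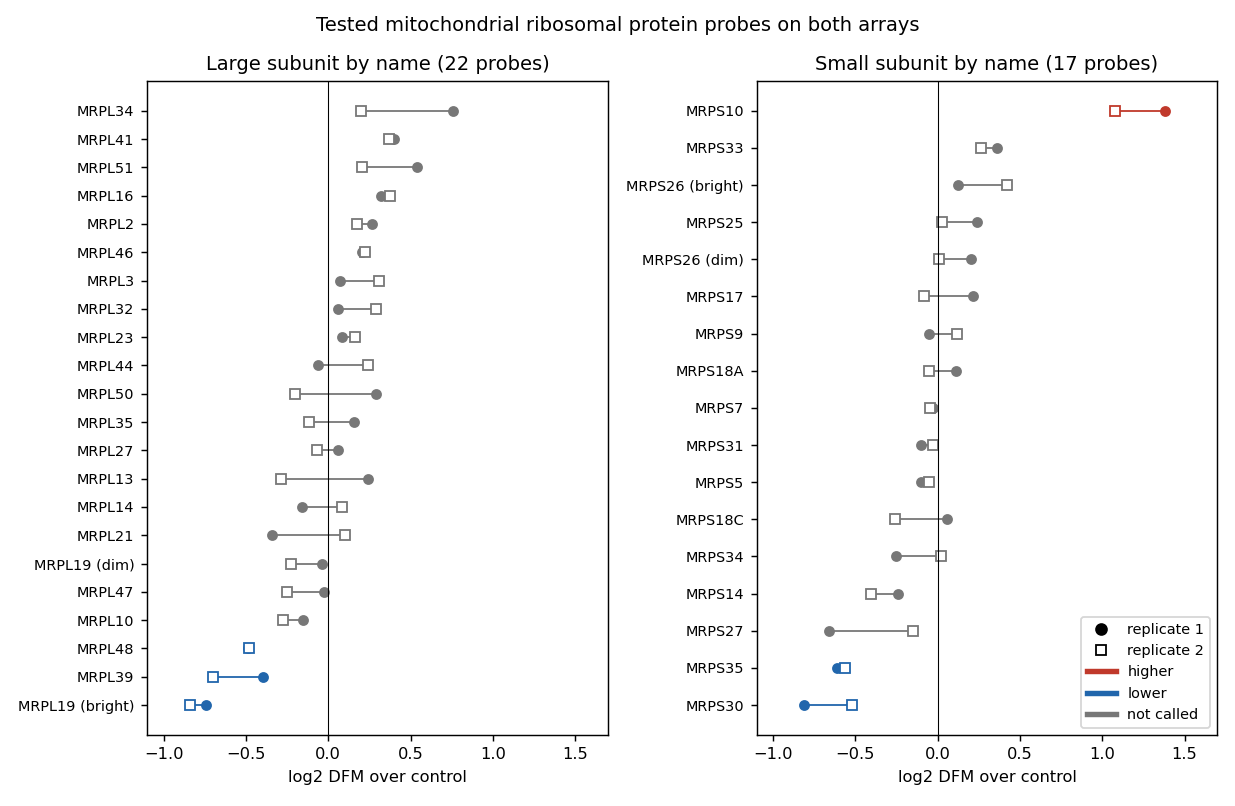
Log2 ratio of DFM over control (horizontal axis) for each of the 39 tested probes, large subunit left and small subunit right, with a filled circle for replicate 1 and an open square for replicate 2. Red marks the 1 probe called higher, blue the 5 called lower and grey the 33 not called; "bright" and "dim" tell apart probes of 1 gene, and most grey pairs lie near or across 0.

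The only member called higher was MRPS10. Its protein sits in the head of the small subunit. Its normalized log2 signal was 8.53 with DFM and 7.15 with control on replicate 1, and 8.24 and 7.17 on replicate 2. The DFM signal was above the control signal on both arrays and the groups did not overlap. The call rests on these same channels, so this is no separate support, here or for the lower members below. The ratio was 1.38 on the log2 scale on replicate 1 and 1.08 on replicate 2 (mean 1.23, SE 0.14, n = 2 arrays, limma adjusted p = 0.000592), and the 95% interval ran from 1.90-fold to 2.90-fold. The interval does not cover the choice of processing. Its upper end was 1.54 on the log2 scale, below the 1.65 with normexp offset 0 and the 1.69 by the scanner software's ratio. The probe lies at chr3:19199311-19199370 on the minus strand of galGal2, the build of the array grid, and was designed on an expressed sequence tag from embryonic gonad that the files assign to MRPS10. No second probe of the gene was among the members.

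The remaining small subunit protein that was called, MRPS35, was lower. MRPS35 is a protein of the mitochondrial small subunit with no counterpart in bacteria. Its log2 signal was 8.11 with DFM against 8.72 with control on replicate 1, and 8.11 against 8.68 on replicate 2. The ratios of -0.61 and -0.56 differed little (mean -0.59, SE 0.12, n = 2 arrays, limma adjusted p = 0.0121). Its probe lies at chr1:186681497-186681556.

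MRPS30 carries a small subunit name, although in mammalian ribosome structures its protein is part of the large subunit. It measured 7.83 with DFM and 8.65 with control on replicate 1, and 8.13 and 8.65 on replicate 2. The control signal was the same on both arrays to the second decimal, and both DFM signals were below it. The ratios were -0.81 and -0.52 (mean -0.67, SE 0.13, n = 2 arrays, limma adjusted p = 0.0097). The probe lies on the sex chromosome Z, at chrZ:7223350-7223408. Of 371 tested probes placed on Z, 10.2% were called higher and 11.6% lower, with a median log2 ratio of -0.08, against -0.02 on the numbered chromosomes. The other members on Z were MRPS27, a small subunit protein that binds RNA in mammals, at -0.66 and -0.15, and MRPL50 at 0.29 and -0.20, and neither was called.

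In the large subunit, 0 probes were called higher and 3 lower by limma, with 4 higher at an unadjusted p under 0.05. The scanner software's own p under 0.01 on both arrays gave 0 higher and 2 lower. Over all 18242 tested probes, 3525 were higher at the unadjusted limma p, and the software's p gave 10.2% in each direction. MRPL19, a relative of the bacterial protein at the interface between subunits, had the lowest ratio of all members. Its bright probe measured 9.13 with DFM and 9.87 with control on replicate 1, and 9.02 and 9.86 on replicate 2. Both DFM signals were below both control signals. The ratio was -0.74 on replicate 1 and -0.84 on replicate 2 (mean -0.79, SE 0.13, n = 2 arrays, limma adjusted p = 0.00356). A second, dim probe of MRPL19 measured -0.04 and -0.23 and was not called (95% interval -0.43 to 0.16). The intervals of the 2 probes did not overlap, so MRPL19 has no single value on these arrays.

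MRPL39, a large subunit protein particular to mitochondria, measured 8.31 with DFM against 8.71 with control on replicate 1, and 8.13 against 8.84 on replicate 2. Its ratios were -0.40 and -0.70 (mean -0.55, SE 0.14, n = 2 arrays, limma adjusted p = 0.0214). MRPL48 measured 10.55 against 11.04, and 10.43 against 10.92. The ratios of MRPL48, -0.49 and -0.48, were nearly equal on the arrays (mean -0.49, SE 0.12, n = 2 arrays, limma adjusted p = 0.0249). For both genes, the 2 DFM values lay below the 2 control values.

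**Figure D2:**
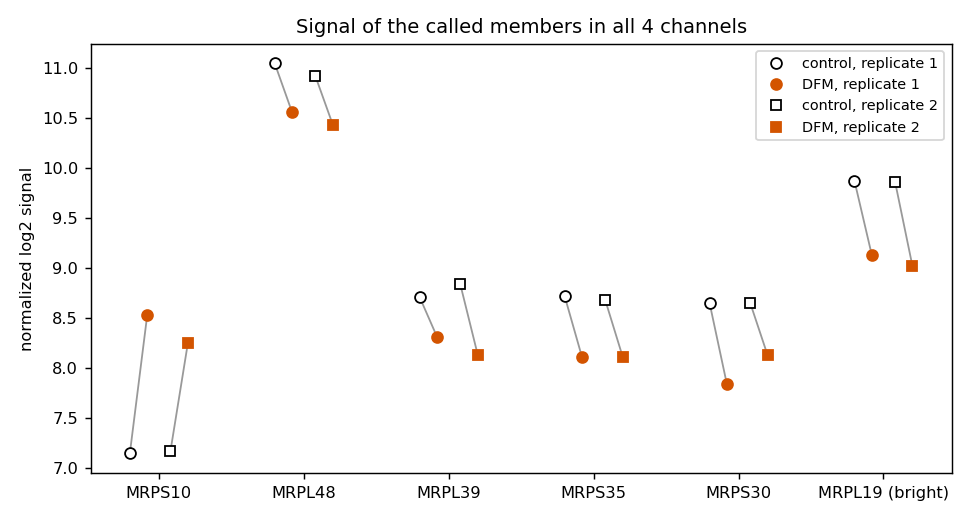
Normalized log2 signal (vertical axis) of the 6 called members in each of the 4 channels, circles for replicate 1 and squares for replicate 2, open for control and filled for DFM, with a line joining the channels of 1 array. MRPS10 rises along both lines and the other 5 fall along both; heights of different probes are not comparable as amounts of RNA.

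Several of the lower probes had 1 property in common. The files place the probes of MRPL19 (bright), MRPL39 and MRPL48 over 1644, 927 and 1498 bases of galGal2, wider than the usual 60 bases, at chr3:108607158-108608801, chr1:96265535-96266461 and chr1:187194258-187195755. The probes of MRPS27, MRPS25 and MRPS18C are also placed over wider stretches. Of these 6 tested members, 3 were lower and 0 higher, with a median log2 ratio of -0.45, while 1 of the 31 placed within 60 bases was higher and 2 were lower, with a median of 0.04. Over all tested probes placed wider than 60 bases, 8.64% were higher and 10.2% lower, with a median of 0.01 (0.008). Over all those placed within 60 bases, 11.6% were higher and 11.1% lower, with a median of -0.02. The part of probe placement in the members' ratios was not tested.

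Among the members that were not called, the highest in the large subunit was MRPL34, a small protein related to a bacterial large subunit protein, at 0.76 and 0.20 (adjusted p = 0.0591 in limma). MRPL41, MRPL51 and MRPL16 followed at mean log2 ratios of 0.39, 0.37 and 0.35, each above 0 on both arrays. MRPL34 and MRPL41 crossed the threshold when 1 probe was kept for each gene (adjusted p = 0.0321 and 0.0422 in limma), and each also under 1 of the filters on dim probes. The sizes, up to 1.39-fold, did not depend on this.

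Further large subunit members were not called either. MRPL2 measured 0.26 and 0.18, and MRPL3 0.07 and 0.31, both related to bacterial proteins that border the peptidyl transferase centre. MRPL32, which in yeast and mouse is trimmed by the m-AAA protease before it joins the ribosome, measured 0.06 and 0.29. At the other end, MRPL10, of the stalk that recruits translation factors, measured -0.15 and -0.28 and was not called. MRPL13, MRPL50, MRPL35, MRPL21, MRPL14, MRPL27 and MRPL44 changed sign between the arrays, with means between -0.12 and 0.09. MRPL23, an exit tunnel protein, measured 0.09 and 0.16, MRPL46 0.21 and 0.22, and MRPL47 -0.03 and -0.25.

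In the small subunit the uncalled members lay between MRPS27 at a mean of -0.40 and MRPS33 at 0.31. MRPS33 measured 0.36 and 0.26 (adjusted p = 0.109 in limma), and MRPS14, a relative of a bacterial protein of the subunit head, -0.24 and -0.41 (adjusted p = 0.102). Of other relatives of bacterial small subunit proteins, MRPS5 measured -0.10 and -0.05, MRPS7 -0.03 and -0.04 (-0.026 and -0.045), and MRPS9 -0.05 and 0.12, and none of these 3 was called. MRPS17, MRPS31 and MRPS34 had means of 0.07 (0.065), -0.07 and -0.11. MRPS18A and MRPS18C, paralogs that both descend from 1 bacterial protein and of which MRPS18A sits in the large subunit of mammals, had means of 0.03 and -0.10. MRPS26, which the files name jointly with the gene of the hormone GnRH-II, had 2 tested probes at means of 0.27 and 0.10. Both were above 0 on each array, neither was called, and their 95% intervals overlapped.

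The medians of the subunits were 0.03 for the large and -0.04 (-0.035) for the small subunit by name. They stayed at 0.02 and -0.04 (-0.035) after MRPS30 and MRPS18A were counted with the large subunit, a grouping chosen after seeing the data. In that grouping 0 of 24 large subunit probes were higher and 4 lower, and 1 of 15 small subunit probes was higher and 1 lower. The shares over all tested probes were 12.1% higher and 10.5% lower. On replicate 1 the medians by name were 0.06 for the large and -0.03 for the small subunit, and on replicate 2 they were 0.09 and -0.04 (-0.045). The difference between subunits was not tested.

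**Figure D3:**
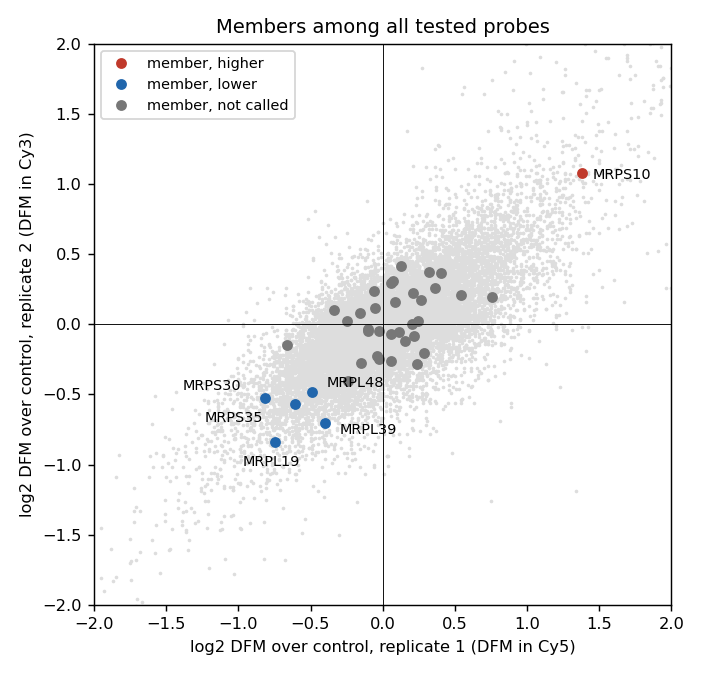
Log2 ratio of DFM over control on replicate 1 (horizontal axis) against replicate 2 (vertical axis) for the tested probes between -2 and 2 on both axes (light grey points) and for the 39 tested members (large points, coloured by call). The members form a compact cloud around 0 with 5 probes low on both arrays and MRPS10 high on both.

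Dim signal kept 11 members out of the test. For 9 of them no channel was well above background, among them the second probes of MRPL47, MRPS25, MRPS33 and MRPS18C, whose other probes were bright. The same held for MRPS11, MRPS23 and all 3 probes for MRPL1. Of these 3, the files place 2 on chromosome 4 and 1 on chromosome 9, and 2 are described only by similarity to the mouse gene. MRPL18 and the remaining probe were above background in 1 DFM and 1 control channel. That remaining probe, described as similar to MRPS18A, belongs to RSPH9 in RefSeq, the gene of a radial spoke protein of motile cilia, and is no mitochondrial ribosomal protein. RSPH9 neighbours MRPS18A in the RefSeq order of genes. MRPL46 and MRPS11 are likewise next to each other, and the probe of MRPL46 was well above background while that of MRPS11 was not. A dim probe need not mean a gene of low level, as the second probes above show.

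The text rule missed 5 probes that RefSeq assigns to the same family, and these were all well above background. MRPS21, a small subunit protein with a bacterial relative, measured 0.73 and 0.34 (mean 0.53, SE 0.14, n = 2 arrays, limma adjusted p = 0.0286) and was called higher. MRPL42, MRPS22, MRPS6 and MRPS2 had means of -0.07, -0.18, -0.20 and -0.37 and were not called. With these, the family gained a second small subunit protein that was higher and no further lower one. They were added after their values were seen.

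Other genes that serve the mitochondrial ribosome were counted by the brightest tested probe of each gene. Of 6061 named genes, 8.48% were called higher and 14.5% lower, with a median log2 ratio of -0.08. For mitoribosome proteins under other names, 0 of 4 tested were called in either direction (0 higher and 0 lower at an unadjusted p under 0.05 in limma). They were DAP3, a GTP-binding small subunit protein, at -0.04 and -0.10, PTCD3 at -0.10 and -0.28, AURKAIP1 at -0.12 on both arrays, and CHCHD1 at 0.41 and -0.06 (-0.065), all 4 named after their values were seen. Translation factors had 2 higher, 1 lower and 6 not called of 9 tested, and a median of -0.06.

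MTIF2, the mitochondrial initiation factor that brings the initiator tRNA to the small subunit, was 2.26-fold higher by its brightest probe, at 1.22 and 1.13 (SE 0.12, n = 2 arrays, limma adjusted p = 0.000488). Its 2 other tested probes gave -0.38 and -0.15, and -0.36 and -0.25, and were not called. The probes of MTIF2 thus disagreed in sign on both arrays. C12orf65, a rescue factor for stalled mitochondrial ribosomes, was 1.43-fold higher, at 0.66 and 0.36. MTIF3, the initiation factor that helps keep the subunits apart, was lower at -0.49 and -0.34 (adjusted p = 0.047 in limma).

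Of 10 assembly and rRNA modification genes, 2 were higher, 0 lower and 8 not called. The higher ones were MRM2, a methyltransferase of the large subunit RNA, at 0.52 and 0.35, and DHX30, a helicase of mitochondrial RNA granules, at 0.46 and 0.38. Mitochondrial aminoacyl-tRNA synthetases and the glutaminyl amidotransferase had 2 higher, 0 lower and 9 not called of 11. PARS2, which charges the proline tRNA, was 1.58-fold higher and EARS2, which uses glutamate, 1.34-fold. Among 13 genes of mitochondrial transcription, RNA and genome upkeep, 0 were higher (2 at an unadjusted p under 0.05 in limma), 1 lower and 12 not called. The lower gene was NRF1, a transcription factor of many nuclear genes for mitochondrial proteins, at -0.46 and -0.61 (mean -0.53, adjusted p = 0.019 in limma).

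**Figure D4:**
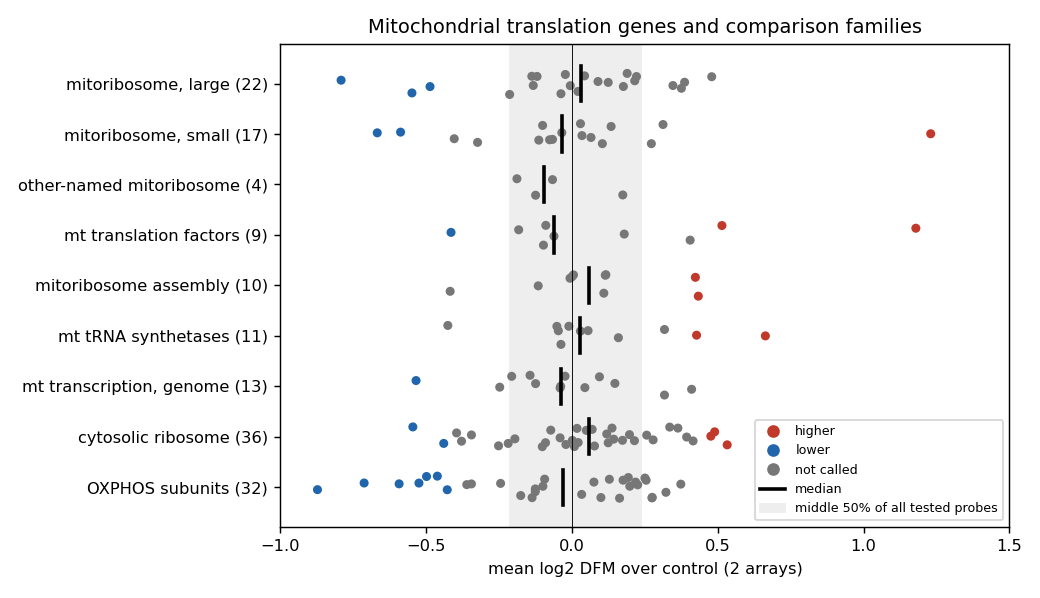
Mean log2 ratio of DFM over control over the 2 arrays (horizontal axis) for single probes of the mitoribosome (22 large, 17 small) and for single genes of each other list, coloured by call, with the median of each list as a black bar and the middle 50% of all tested probes shaded. All medians lie between -0.10 and 0.06. For all named genes by their brightest probe, not drawn, the median was -0.08 and the middle 50% lay between -0.29 and 0.15.

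The cytosolic ribosome and the oxidative phosphorylation complexes are the families closest in function. Of 36 cytosolic ribosomal protein genes tested, 3 were higher and 2 lower, with a median of 0.06. They were taken by symbol, which lets in like-named genes such as RPL7L1. The lower ones were RPL7L1 at a mean of -0.55 and RPS24 at -0.44. Of 32 oxidative phosphorylation genes, 0 were higher (1 at an unadjusted p under 0.05 in limma) and 7 lower, led by UQCRC1 at -0.87, with a median of -0.03. By the brightest probe of each gene, the mitochondrial ribosomal proteins had 1 higher and 5 lower of 37, and a median of 0.02. Over all 6061 named genes, 8.48% were higher and 14.5% lower, with a median of -0.08. These calls kept the adjustment over all tested probes, and a refit with 1 probe for each gene is given further below. The differences between these families were not tested.

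Markers of other cells were read on the same arrays. All 10 tested genes of the exocrine pancreas were higher with DFM. Of these, PNLIPRP1, CEL, CTRC, CPB1 and CTRL passed the background filter only through DFM, so the filter partly set their direction. The summed signal of the pancreas list was 22345 and 21715 with DFM and 1273 and 1284 with control. Most of the sum with DFM was the signal of CPA1. Neither PRSS2 nor PRSS3 passed the background filter. Of 8 tested enterocyte genes, 1 was higher and 4 lower, and FABP2 and SI were not well above background. The 8 genes summed to 240276 and 230206 with DFM and 269929 and 273607 with control. Much of that was the signal of FABP1 and VIL1, at mean log2 ratios of 0.53 and -0.24, and neither was called. The 9 tested T cell genes, which include the defining CD3E, CD3D and CD8A, summed to 37646 and 32140 with DFM and 50429 and 49252 with control, while PTPRC was not well above background. Most of that sum was the signal of CD3D, which was lower at -0.44 and -0.66, whereas CD5 was higher at 0.61 on both arrays and the other 7 were not called. Of 3 cytotoxic cell genes, 0 were higher and 2 lower (0 higher and 2 lower by the software's p on both arrays). Their sums were 26762 and 25419 with DFM against 85534 and 77804 with control. Nearly all of each sum was the signal of GZMA, which was lower at -1.68 and -1.62. CD244 was lower at -0.64 and -0.45, and FASLG was not called. Of 4 tested B cell genes, 0 were higher (limma, 0 at an unadjusted p under 0.05). BTK was lower at -0.91 and -0.64, and the other 3 were not called. The sums were 1143 and 1113 with DFM against 1403 and 1285 with control, and JCHAIN and PAX5 did not pass the background filter. Of 3 erythrocyte genes, HBE1 was higher at 1.33 and 2.44, and HBBA and CA2 were lower. HBE1, too, passed the background filter only through DFM. The sums of the erythrocyte list were 39908 and 37413 with DFM against 63985 and 68432 with control. Nearly all of each was the signal of HBBA. The part of cell makeup in the members' ratios was not tested.

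The 6 calls held unequally under other processing. MRPS10 was also called with normexp offset 0 and with the scanner software's ratio, at log2 ratios of 1.65 and 1.69. Its call, too, was lost after median centring. The lower members kept their sign on each array after loess and by the software's ratio. Under median centring they kept it in the mean of the 2 arrays. With the software's ratio and with median centring their calls were lost. Their adjusted p lay between 0.0535 and 0.144 in limma for the software's ratio. By the software's own p under 0.01 on both arrays, 1 member was higher and 4 were lower, against 10.2% in each direction over all tested probes. After median centring 0 members were lower even at an unadjusted p under 0.05 in limma. Median centring left the mean ratios close to those after loess, for example 1.20 for MRPS10 and -0.83 for MRPL19. The median gap between the arrays over the members was 1.60 after median centring and 0.22 after loess. Over all tested probes it was 1.04 and 0.19. MRPL48 alone lost its call with offset 0 (adjusted p = 0.0959 in limma).

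**Figure D5:**
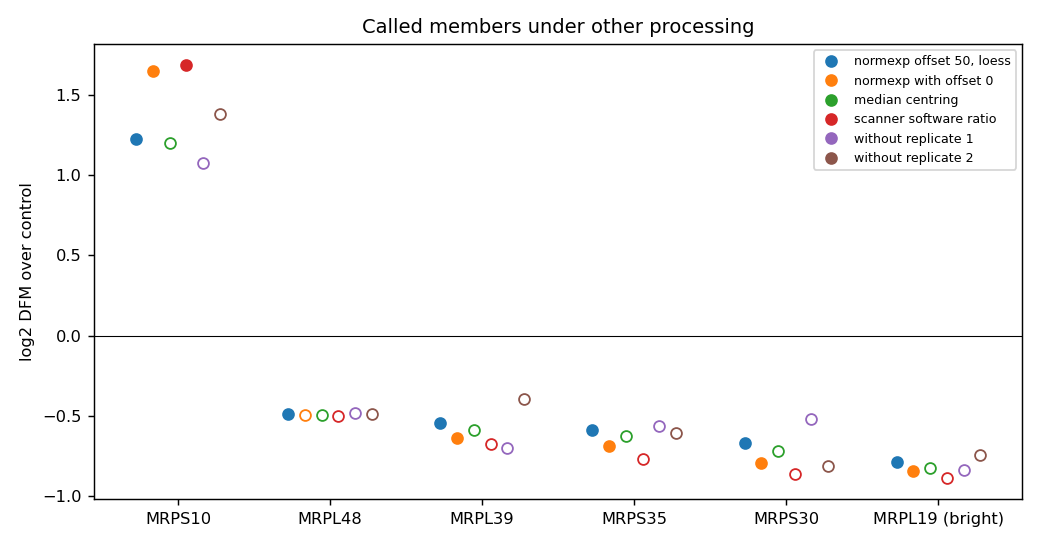
Log2 ratio of DFM over control (vertical axis) of the 6 called members after 4 ways of processing and on each array alone, with filled points for an adjusted p under 0.05 and open points for one at or above it or, for a single array, for no test. MRPS10 stays between 1.08 and 1.69 and the other 5 stay below 0 in all the settings drawn; the spike-in scaling is not drawn.

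One scaling turned the direction of the lower members. The 10 spike-in RNAs, averaged over both dye orientations, stood at a log2 ratio of -2.12 where the average probe stood at 0. Set to the spike-in RNAs, the median of all tested probes was 2.12 and that of the members 2.14, and 18223 probes were called higher and 3 lower. On that scale all 39 tested members were above 0, MRPL19 at 1.33 and MRPS10 at 3.35. Relative to the median of all probes, the members' median stood at 0.02 under loess and between 0.02 and 0.05 under the scalings other than the spike-in one. The spike-in scaling moves every probe by a common shift, so its value of 0.02 equals that of loess by construction.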

How the data were processed

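The authors deposited scanner output for each array. Per the file headers it gives every spot's mean intensity and median local background in both dyes, uncorrected, and the log10 of red over green as processed by the scanner software, with a p-value from its error model for 1 array. The authors' deposited series table holds log2 values. Over 42034 probes they equalled DFM over control of the software's processed signals on both arrays (r = 1, largest difference 1.41e-05), with column medians of -0.274 and 0.204 and no further centring. Its correlation with the deposited log ratio was 0.981 and 0.985. Agilent Feature Extraction is given as 10.7.3.1 in the submitters' processing notes and as 9.5.3.1 in the file headers, which name the build galGal2.

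Here limma 3.58.1 (R 4.3.3) was used for normexp correction (offset 50) and loess within arrays, where control spots had no weight. Channel signals were taken after loess and Aquantile. The ratio of replicate 2 was turned. The 1417 control spots on each array and 5 probes flagged as outliers on replicate 2 were left out. Probes entered the test if well above background on both arrays in at least 1 group, 18242 in all. Each was tested against 0 with lmFit and eBayes (1 residual and 7.52 prior degrees of freedom), two-sided, with Benjamini-Hochberg adjustment over all tested probes. A dye term would leave no residual degrees of freedom. SE is the moderated standard error. The script was tested on simulated data. Alternatives were another offset, median centring, the software's ratio, spike-in scaling, other filters, 1 probe for each gene and single arrays. The number of arrays limits the precision.

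Names came from a RefSeq table (GRCg7b, names and gene order only) by accession (5269 probes), gene identifier (3774), symbol (892) or synonym (307), and 31792 probes stayed unnamed. The members and the other lists were chosen with earlier results of these data known. Any member could be named, and of the other lists every called gene.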

Additional observations from a re-analysis of the deposited data

How the results depend on the processing

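The counts over all probes, 2202 higher and 1918 lower, were 109 and 8 after median centring, 1179 and 951 from the software's own ratio, 18223 and 3 with the spike-in scaling, and 609 and 1046 with 1 probe for each gene. For the members, 1 higher and 5 lower became 0 and 0 with median centring (limma, 1 higher and 0 lower at an unadjusted p under 0.05), 1 and 0 from the software's ratio (1 and 6 unadjusted in limma), and 39 and 0 with the spike-in scaling. Members called higher were 2 without a filter on dim probes (MRPS10 and MRPL41), 2 when both channels had to be above background on both arrays (MRPS10 and MRPL34), and 3 with 1 probe for each gene (MRPS10, MRPL34 and MRPL41). The members' median was 2.14 with the spike-in scaling, and those of the large and small subunit were 2.15 and 2.09. The small subunit's median was -0.074 after median centring. Without the filter the medians of the large and small subunit were -0.006 and 0.011. On single arrays the median lay between 0.064 and 0.091 for the large subunit, between -0.03 and 0.06 for all members and between -0.045 and -0.026 for the small subunit. With the spike-in scaling the lower members stood above 0, MRPS30 at 1.45, MRPS35 at 1.53, MRPL19 at 1.33, MRPL39 at 1.57 and MRPL48 at 1.63. Both arrays received 1 common shift there, so variation among spike-in RNAs does not enter the p-values. The cause of these changes was not tested. All 6 calls kept their direction and their side of the threshold under both filters, and their direction on each array. Counts of calls on 1 array cannot be had, since no residual degrees of freedom remain. The test against 0 was itself a paired analysis, because each ratio pairs DFM with control on its own array. The offset compresses ratios of dim probes: MRPS10 measured 1.23 with offset 50 and 1.65 with offset 0.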

Other observations

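The mean log2 ratio correlated with the mean log2 signal at Pearson r = 0.33 and Spearman rho = 0.53 across the 39 members, against -0.01 and -0.02 across all 18242 tested probes. This is a description over probes that share the same arrays. With the tested probes ranked by signal, 0 members fell among the 6081 dimmest. Of the 8 among the 6080 in the middle, 1 was higher and 2 lower with a median of -0.27, and of the 31 among the 6081 brightest, 0 were higher (limma) and 3 lower with a median of 0.04. Over all probes in the middle, 14.6% were higher and 12.2% lower, and the median was 0.01 (0.009). Over all of the brightest probes, 15.9% were higher and 16.5% lower, and the median was -0.01 (-0.009).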
